A study of Saccharomyces cerevisiae with 36 samples.

Results

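Ribosome footprints of a budding yeast mutant that lacks both CTH1 and CTH2 (cth1Δcth2Δ, W303a background) were compared between 3 h and 0 h of iron chelation, over all annotated features. The libraries were chosen by genotype, assay and time as labelled, with no measured value, and make up 6 of the 36 libraries of the series, 3 biological replicates a side. Cells at 0 h were early exponential cultures in Kaiser SC medium with sufficient iron, and cells at 3 h came from the same medium with 100 µM bathophenanthroline disulfonic acid (BPS), a chelator of ferrous iron. Set beside them were the footprints of the wild type (W303a) at the same times, the mutant's RNA-seq libraries and, for levels only, the mutant's footprints at 6 h in BPS. The controls carry both deletions too. No library at 3 h without BPS was analysed here, so chelation and 3 h more in culture cannot be told apart. The labels do not say from how many clones the mutant cultures came or which marker alleles the strains carry.

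Ribosome profiling sequences the short mRNA fragments that ribosomes shield from RNase I, so a footprint count follows both the amount of an mRNA and the number of ribosomes on it. When iron is short, the transcription factors Aft1 and Aft2 switch on the yeast iron regulon, a set of genes for iron uptake, release of stored iron and iron reuse. Cth1 and Cth2 (CTH2 is listed in the files under its other name, TIS11) are zinc-finger proteins that bind AU-rich elements downstream of the stop codon and promote the decay of mRNAs for iron-consuming proteins. TIS11 is itself a member of the iron regulon.

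The 6 footprint libraries held between 1197171 and 11706487 counted reads, with 2734292, 1197171 and 11706487 in replicates 1, 2 and 3 at 0 h and 3363381, 10502563 and 10244527 at 3 h. A count of 3 reads was worth 0.256 to 2.51 CPM (counts scaled to a library of equal size) in these libraries, and this floor covers counting error only. Reads of the deleted genes were counted first. CTH1 had 3, 1 and 3 reads in the mutant at 0 h and 0, 0 and 1 at 3 h, whereas wild-type cells averaged 29.1 ± 1.82 CPM at 0 h and 25 ± 7.57 CPM at 3 h (SD, n = 3). TIS11 had 12, 14 and 17 reads in the mutant at 0 h and 1, 3 and 9 at 3 h, against 369 ± 77.2 CPM in wild-type cells at 3 h. At 0 h TIS11 does not tell the strains apart, since the wild type was at 6.33 ± 4.41 CPM and the mutant libraries at 4.65, 11.9 and 1.47 CPM. These few reads still made TIS11 one of the features called lower (log2 fold change −3.02; adjusted p = 0.0459), a call lost without replicate 1 or 2 of either group (adjusted p from 0.119 to 0.185) and after thinning to the smallest library (0.273). All 6 a-cell marker genes passed the filter on low counts, while of the 4 α-cell markers only STE3 did, at 0.388 to 1.82 CPM.

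Of 5315 features tested, 152 rose (2.86%) and 44 fell (0.828%) in the mutant at 3 h, 3.69% together, by edgeR's quasi-likelihood test at a Benjamini-Hochberg adjusted p under 0.05, and 19.7% had an unadjusted p under 0.05. The replicate numbers paired the libraries, but this fit had no block, and neither had those below unless stated. With the replicate number as a block 332 features were called, 252 higher and 80 lower, among them all 196 called without it. The median log2 fold change was 1.89 over the features that rose and −1.81 over those that fell, beside 0.00 over all features tested, and 71 rose and 15 fell by more than 2 on that scale. The CPM of the 3 h libraries did not overlap that of the 0 h libraries for 150 of the 152 features that rose and for all 44 that fell, but the same was true of 33% of all features tested. The number called was 101, 69 and 47 when replicate 1, 2 or 3 of the 0 h group was left out, 114 and 79 without replicate 1 or 2 of the 3 h group, and 198 without replicate 3 of the 3 h group. In the 13 alternative fits, 30 features were called higher and 3 lower each time. These 33 included FIT1, FIT2, FIT3, ARN1, SIT1, ENB1, FRE3, FTR1, MRS4, LSO1, ISU2, ZRT1, APE1, PEP4, ATG32 and ATG34 among those that rose, and RPL33A, AGA2 and SCM4 were those that fell.

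**Figure D1:**
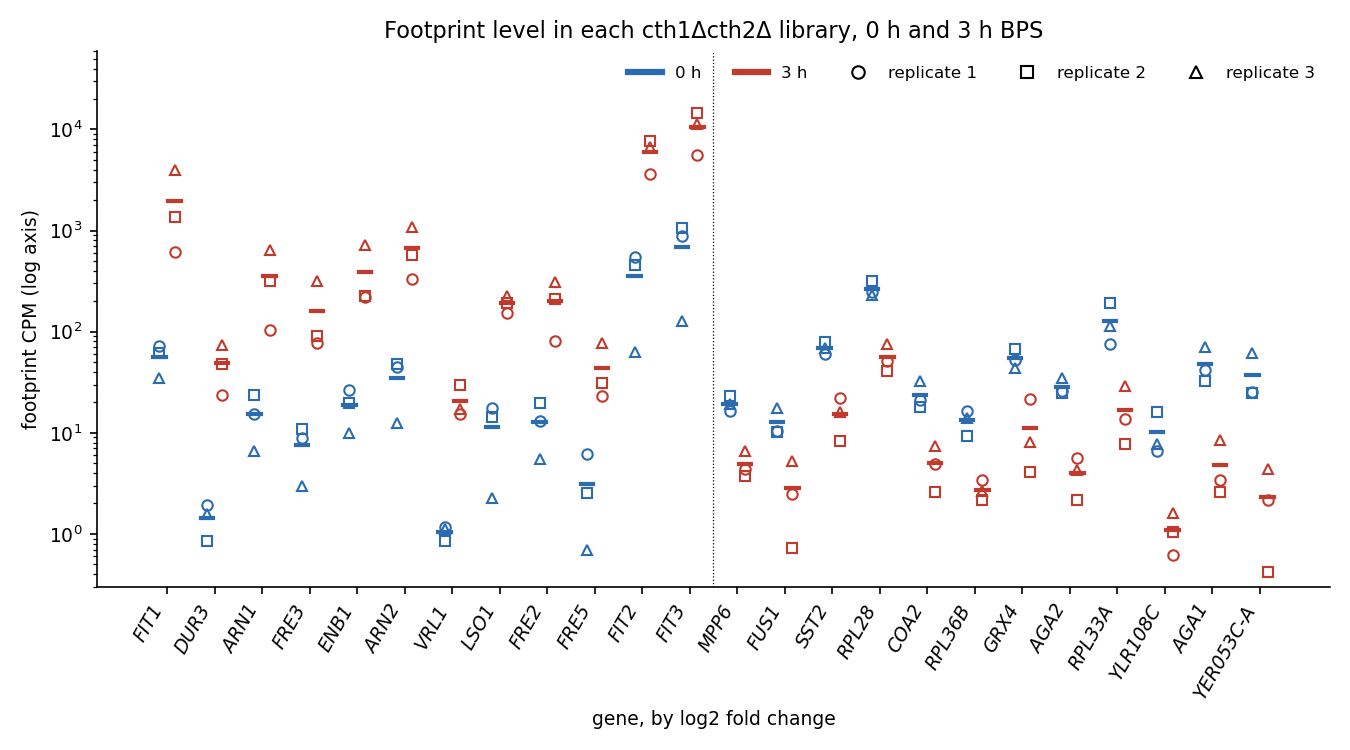
Footprint CPM (log axis) of the 12 largest rises (left of the dotted line) and 12 largest falls in each of the 3 cth1Δcth2Δ libraries at 0 h (blue) and 3 h (red); symbols mark the replicate and bars the mean. FIT1 lay between 35.1 and 72.9 CPM at 0 h and between 608 and 3944 CPM at 3 h, and RPL33A between 76.0 and 193 CPM at 0 h and between 7.70 and 28.8 CPM at 3 h.

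Promoter sequence is shown because many of the genes with the largest rises held the same letters upstream. TGCACCC, the core of the site that Aft1 binds, was searched on both strands in the 500 bases before each start codon of the R64 genome. It was present for 139 of 5989 nuclear protein-coding genes (2.32%), for 26 of the 152 that rose (17.1%) and for 2 of the 43 protein-coding genes that fell (4.65%). These 2 included TIS11, a gene deleted in this strain. Of the 123 tested genes with it, 26 rose (21.1%), against 2.45% of the 5152 without it. All 7 genes for siderophore uptake and cell wall iron retention had it, as did 6 of 8 ferric reductases and 5 of 6 genes of plasma membrane iron transport. Of 8 genes for vacuolar and mitochondrial metal transport and heme reuse 3 had it (37.5%). MRS4, FTH1 and COT1, which rose, did not have it. A match is a description of the sequence and not a measured binding site. The stretches around it are given 5′ to 3′ on the coding strand in R64 coordinates, with the match in capitals (GGGTGCA is the same letters on the opposite strand).
FIT1, chrIV:1505030-1505128, minus strand: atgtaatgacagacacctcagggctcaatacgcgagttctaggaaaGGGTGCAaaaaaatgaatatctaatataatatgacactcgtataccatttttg
FIT3, chrXV:1061187-1061285, minus strand: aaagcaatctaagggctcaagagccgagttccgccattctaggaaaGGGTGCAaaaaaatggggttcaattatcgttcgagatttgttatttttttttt
ARN1, chrVIII:21179-21277, minus strand: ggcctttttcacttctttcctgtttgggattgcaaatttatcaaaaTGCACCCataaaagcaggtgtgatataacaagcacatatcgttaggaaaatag
FRE3, chrXV:1055072-1055170, plus strand: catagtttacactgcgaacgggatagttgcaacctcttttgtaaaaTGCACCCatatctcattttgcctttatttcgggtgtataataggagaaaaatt
FTR1, chrV:461863-461961, minus strand: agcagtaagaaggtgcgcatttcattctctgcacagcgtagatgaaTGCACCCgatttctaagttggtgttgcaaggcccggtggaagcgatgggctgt

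Genes for taking up iron bound to siderophores and holding it in the cell wall rose together, 7 of 7, with a median log2 fold change of 4.28. FIT1, FIT2 and FIT3 encode mannoproteins of the cell wall that retain siderophore iron. FIT1 footprints were 72.9, 61.8 and 35.1 CPM at 0 h and 608, 1354 and 3944 CPM at 3 h, a log2 fold change of 5.13 ± 0.74 (SE; adjusted p = 0.00133). FIT3 went from 876, 1049 and 127 CPM to 5543, 14694 and 11377 CPM, with a log2 fold change of 3.95 ± 0.77 (adjusted p = 0.00864). The groups did not overlap for either gene, which the rule for naming the largest changes required. Within the 0 h group replicate 3 was the lowest, for FIT3 by a wide margin. ARN1, ARN2, SIT1 and ENB1 encode transporters for iron-bearing siderophores, and their log2 fold changes were 4.64 ± 0.77, 4.28 ± 0.79, 3.71 ± 0.56 and 4.40 ± 0.61. ENB1, the enterobactin transporter, was at 26.8, 19.5 and 9.89 CPM at 0 h and 220, 224 and 713 CPM at 3 h. Summed over the 7 genes, the level was 1622, 1685 and 271 CPM at 0 h, 10634, 24985 and 25146 CPM at 3 h and 40670 ± 4330 CPM at 6 h (SD, n = 3). The call for ARN2 was lost without replicate 3 of the 0 h group (adjusted p = 0.0507). FRE3, FIT2, FIT3 and FRE5 are neighbours on chromosome XV, between 1055545 and 1063648 in R64, and all 4 rose.

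Of the 8 ferric reductases, which reduce ferric iron at the cell surface or in organelles, 4 rose (FRE1, FRE2, FRE3 and FRE5) and none fell, with a median log2 fold change of 2.86. FRE3 was at 8.92, 11 and 2.95 CPM at 0 h and 76.6, 91.0 and 318 CPM at 3 h, a log2 fold change of 4.59 ± 0.78 (adjusted p = 0.00335). FRE1, the main surface reductase, was at 35.3, 31.3 and 37.0 CPM at 0 h and 168, 201 and 732 CPM at 3 h, where replicate 3 stood well above the others. FRE6, a reductase of the vacuole, did not pass the test (2.15 ± 0.65; adjusted p = 0.0792) and did with the replicate block (adjusted p = 0.00473). The count of 4 became 2 without replicate 1 or 2 of the 0 h group and 1 without replicate 3 of that group.

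The high-affinity uptake system at the plasma membrane also rose. Ftr1 is its iron permease, Fet3 the multicopper oxidase that works with it and Ccc2 the pump that loads Fet3 with copper. FTR1 was at 114, 144 and 147 CPM at 0 h and 575, 855 and 2071 CPM at 3 h, a log2 fold change of 3.11 ± 0.47 (adjusted p = 0.00172). FET3 was at 404, 402 and 437 CPM and then at 1142, 1795 and 4517 CPM (2.58 ± 0.55; adjusted p = 0.0146). CCC2 went from 18.2, 18.6 and 16.9 CPM to 79.7, 72.6 and 218 CPM (2.79 ± 0.59; adjusted p = 0.0142). The 0 h libraries lay close together for these genes, and replicate 3 was the highest at 3 h. FET4, a low-affinity transporter, gave 1.46 ± 0.59 and did not pass the test (adjusted p = 0.182; with the replicate block, 0.0141). The copper chaperone ATX1 gave 1.06 ± 0.34 (adjusted p = 0.096). The calls for FET3 and CCC2 were lost without any single 0 h library, and that for FET3 also without replicate 3 of the 3 h group (adjusted p from 0.0542 to 0.0904), which left FTR1 alone of the 3 called without a 0 h library.

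Among 8 genes for vacuolar and mitochondrial metal transport and heme reuse, 5 rose and none fell, with a median log2 fold change of 1.98. MRS4, an iron carrier of the mitochondrial inner membrane, was at 30.6, 33.0 and 17.0 CPM at 0 h and 113, 185 and 161 CPM at 3 h (2.54 ± 0.36; adjusted p = 0.00129). FTH1, the permease of the iron exporter of the vacuole, gave 2.34 ± 0.52, and its oxidase partner FET5 gave 1.96 ± 0.64 without passing the test (adjusted p = 0.097; with the replicate block, 0.00328). SMF3, another vacuolar iron exporter, gave 2.00 ± 0.52. HMX1, the heme oxygenase that frees iron from heme, gave 1.9 ± 0.48, and the vacuolar metal transporter COT1 2.17 ± 0.52. CCC1, which carries iron into the vacuole, was at 90.0, 110 and 95.3 CPM at 0 h and 73.2, 54.7 and 71.7 CPM at 3 h and did not pass the test (adjusted p = 0.127). MRS4 was the only one of the 5 still called without any single library: the count was 1 without any single 0 h library or without replicate 3 of the 3 h group, and 4 without replicate 1 or 2 of that group. After thinning it was 3.

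In a list of 9 genes for iron sensing, LSO1, YAP5 and FRA1 rose and GRX4 fell. The list also took in LSO1 and LSO2, which encode ribosome-binding proteins and not sensors of iron. LSO1, a small protein, was at 17.5, 14.4 and 2.26 CPM at 0 h and 152, 191 and 227 CPM at 3 h (4.20 ± 0.76; adjusted p = 0.00593), and its promoter window held TGCACCC. GRX4, a monothiol glutaredoxin that passes iron status to Aft1, fell from 52.0, 67.7 and 43.7 CPM to 21.4, 4.06 and 8.09 CPM (−2.34 ± 0.54; adjusted p = 0.0229). GRX4 RNA gave −0.71 and did not pass the test (adjusted p = 0.411). AFT1 gave 0.94 ± 0.29 without passing the test (adjusted p = 0.0831), and did pass without replicate 1 of the 0 h group (adjusted p = 0.0219). YAP5, an iron-responsive transcription factor, and FRA1, a repressor of Aft1 activity, gave 1.01 ± 0.25 and 0.80 ± 0.19. The call for GRX4 was lost without any single 0 h library or replicate 2 or 3 of the 3 h group (adjusted p from 0.0578 to 0.0948), and those for YAP5 and FRA1 without most single libraries (adjusted p from 0.0548 to 0.162).

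**Figure D2:**
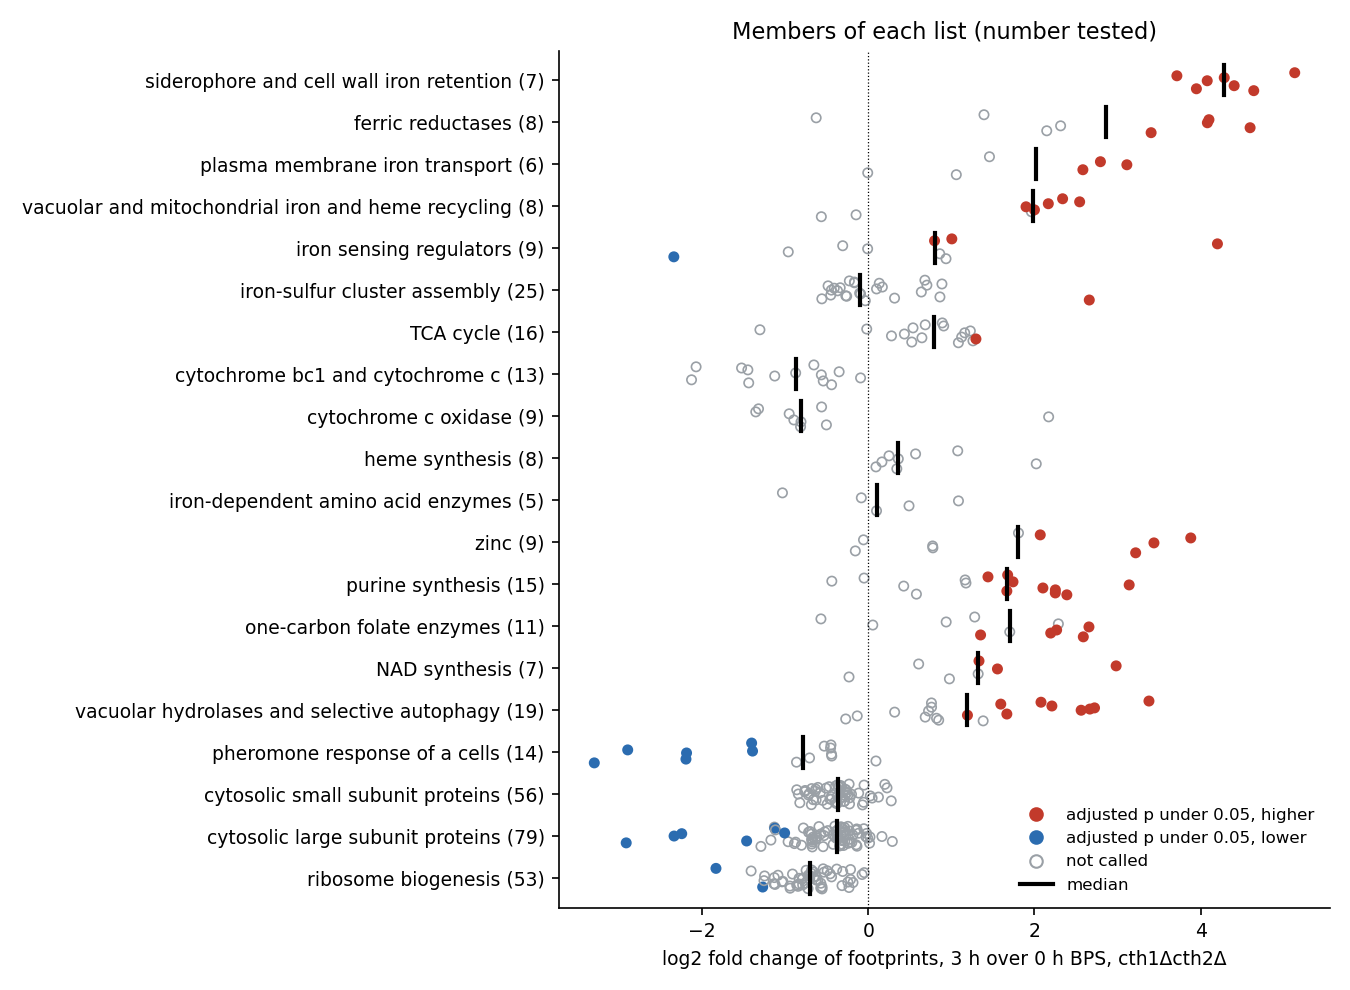
Log2 fold change of footprints, 3 h over 0 h, of each tested member (points) of 20 gene lists in the cth1Δcth2Δ mutant, with the number tested in brackets and the median as a black bar; filled points passed the test. All 7 siderophore and cell wall genes rose. In the cytochrome bc1 and cytochrome c list, with CYB2 and CYB5, none of 13 passed the test and all lay below 0.

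Genes that assemble iron-sulfur clusters were mostly not called: 1 of 25 rose, with a median log2 fold change of −0.10. ISU2, a scaffold on which clusters are built, was at 25.6, 23.7 and 20.9 CPM at 0 h and 126, 151 and 165 CPM at 3 h (2.66 ± 0.35; adjusted p = 0.000923). Its libraries were tight in both groups, and it was called in each of the 13 alternatives. With only the compared groups in the fit 2 genes of the list were called higher. In the tricarboxylic acid cycle 1 of 16 genes rose, LSC2, a subunit of succinyl-CoA ligase (1.30 ± 0.30; adjusted p = 0.0248). The cycle's median was 0.79 and 14 of 16 members lay above 0, and 4 were called higher with the replicate block or with DESeq2. With only the compared groups in the fit 5 were called higher and 1 lower. LSC2 was not called without replicate 2 or 3 of the 0 h group or replicate 1 of the 3 h group (adjusted p from 0.113 to 0.142). In the wild type 1 of these 16 genes rose and 6 fell.

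In a list of 13 genes for the cytochrome bc1 complex and cytochrome c none passed the test in the mutant. All 13 lay below 0, with a median of −0.87. The list also holds CYB2 and CYB5, cytochromes that belong to neither. CYB5 came nearest to a call (log2 fold change −2.13, adjusted p = 0.0509). CYC1, the main cytochrome c, was at 760, 707 and 1096 CPM at 0 h and 369, 18.5 and 224 CPM at 3 h, a log2 fold change of −2.07 ± 0.93 (adjusted p = 0.228). The 3 h libraries differed from each other by far more than those at 0 h, with replicate 2 the lowest. CYT1, cytochrome c1, was also lowest in replicate 2 at 3 h, going from 167, 157 and 276 CPM to 106, 11.2 and 106 CPM (adjusted p = 0.255). With the replicate block 1 of the 13 was called lower. In the wild type 11 of the 13 fell with a median of −2.33, and the strain difference was called for 0 of the 13. Of 9 cytochrome c oxidase genes, 8 heme synthesis genes and 5 iron-dependent enzymes of amino acid synthesis none passed the test, with medians of −0.81, 0.35 and 0.10. With the replicate block 1 cytochrome c oxidase gene and 1 heme synthesis gene were called. ROX1, the repressor of hypoxic genes, fell from 204, 151 and 217 CPM to 47.4, 37.9 and 65.8 CPM (−1.92 ± 0.46; adjusted p = 0.027). That call was lost without any single library other than replicate 3 of the 3 h group (adjusted p from 0.0606 to 0.124).

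Of 9 zinc genes 4 rose and none fell, with a median of 1.81. ZRT1, the high-affinity zinc transporter, was at 200, 130 and 87.3 CPM at 0 h and 1360, 1599 and 3168 CPM at 3 h (3.88 ± 0.48; adjusted p = 0.000585). ZPS1, a cell surface protein that is also made under zinc limitation, rose by 3.44 ± 0.58 and ZAP1, the zinc-responsive activator, by 2.07 ± 0.43 on the log2 scale. ADH4, an alcohol dehydrogenase, rose too, but its libraries overlapped (132, 64.3 and 13 CPM at 0 h and 1059, 774 and 100 CPM at 3 h). The palindromic Zap1 element, searched for on both strands after these values were seen, was found for 9 of 5989 genes (0.15%), of which ZRT1 was the only listed zinc gene. It was found for 2 of the 152 genes that rose (1.32%) and 1 of the 43 protein-coding genes that fell (2.33%). The called genes with it were ZRT1, PAN1 and TEX1. ZRG17, outside the list, had it and was not called.
ZRT1, chrVII:20730-20828, plus strand: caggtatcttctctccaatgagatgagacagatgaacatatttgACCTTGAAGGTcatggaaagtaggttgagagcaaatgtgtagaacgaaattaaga
The calls for ZRT1 and ZPS1 held without any single library. The count of 4 became 2 without replicate 2 or 3 of the 0 h group or replicate 2 of the 3 h group. The adjusted p was 0.0549 to 0.162 where ADH4 was lost and 0.0694 to 0.0922 where ZAP1 was lost.

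Enzymes of purine synthesis formed another set that rose, grouped and counted after the fits were seen: 9 of 15 rose and none fell, with a median log2 fold change of 1.67. ADE17, the enzyme of the last steps to inosine monophosphate, was at 885, 290 and 246 CPM at 0 h and 7299, 3904 and 1329 CPM at 3 h (3.14 ± 0.64; adjusted p = 0.0116). ADE1 was at 430, 216 and 341 CPM and then at 2931, 1465 and 787 CPM (2.39 ± 0.47; adjusted p = 0.00993). ADE4, the first committed step, rose by 2.10 ± 0.40, ADE2 by 2.25 ± 0.43 and ADE13 by 2.25 ± 0.44. ADE16, the paralog of ADE17, rose by less, 1.44 ± 0.24, with 444, 592 and 383 CPM at 3 h. For ADE1, ADE2, ADE4, ADE13 and ADE17 replicate 1 was the highest and replicate 3 the lowest of the 3 h libraries. Of the 15 genes, 11 had TGACTC, the core of the site shared by Bas1 and Gcn4, in the promoter window on either strand, beside 12.7% of all 5989 genes and 22.4% of those that rose. ADE16 did not have it, while ADE3, ADE6 and GUA1, which were not called, did.
ADE1, chrI:169112-169209, plus strand: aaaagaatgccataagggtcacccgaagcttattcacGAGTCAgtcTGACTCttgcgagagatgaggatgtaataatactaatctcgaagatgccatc
ADE2, chrXV:566293-566390, minus strand: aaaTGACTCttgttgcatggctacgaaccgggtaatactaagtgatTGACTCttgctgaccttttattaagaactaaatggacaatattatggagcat
The capitals mark TGACTC and its reverse complement GAGTCA. The purine count fell to 1 without replicate 2 or 3 of the 0 h group and was 11 without replicate 3 of the 3 h group, and the single gene kept was ADE16. Replicate 1 to replicate 3, the summed purine level was 9606, 7024 and 6703 CPM at 0 h and 35781, 22314 and 10384 CPM at 3 h, and it was 5207 ± 689 CPM at 6 h.

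In a list of one-carbon enzymes, which supply purine synthesis, also made after the fits were seen, 5 of 11 rose and none fell, with a median of 1.70. SHM2, the cytosolic serine hydroxymethyltransferase, was at 2429, 1135 and 1611 CPM at 0 h and 15208, 5296 and 3212 CPM at 3 h (2.2 ± 0.49; adjusted p = 0.0198). MTD1, a folate dehydrogenase, was at 214, 75.3 and 160 CPM and then at 1662, 522 and 664 CPM (2.66 ± 0.68; adjusted p = 0.0373). GCV1, of the glycine cleavage system, rose by 2.59 ± 0.64, SER3, of serine synthesis, by 2.27 ± 0.46 and SER1, in the same pathway, by 1.35 ± 0.36. None of these 5 was called without replicate 2 or 3 of the 0 h group or without replicate 1 of the 3 h group, 3 were called without replicate 1 of the 0 h group or replicate 2 of the 3 h group, and 9 list members were called without replicate 3 of the 3 h group. The count was 9 with DESeq2 and 2 with only the compared groups in the fit. The summed level was 26966, 9780 and 7224 CPM at 3 h and 2270 ± 153 CPM at 6 h, below its 3937 ± 1152 CPM at 0 h.

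**Figure D3:**
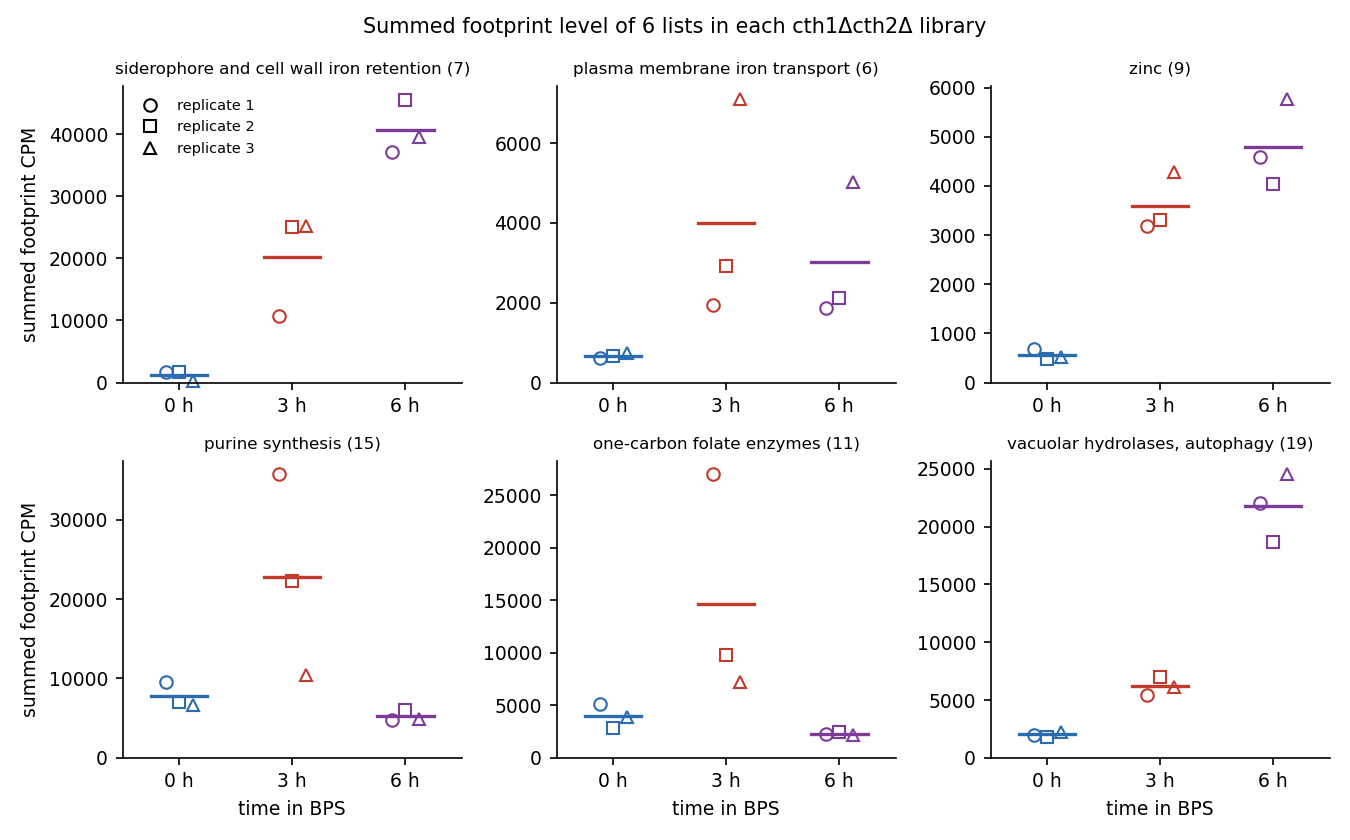
Summed footprint CPM of 6 lists in each cth1Δcth2Δ library at 0 h, 3 h and 6 h in BPS; symbols mark the replicate and bars the mean, and the number of members summed is in brackets. Replicate 3 was the highest 3 h library for plasma membrane iron transport (7109 CPM) and the lowest for purine synthesis (10384 CPM).

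Vacuolar hydrolases and receptors of selective autophagy rose as well, 9 of 19 in a list made after the fits were seen, with a median of 1.19. ATG32, the receptor that marks mitochondria for autophagy, was at 14.3, 12.7 and 5.64 CPM at 0 h and 82.5, 157 and 81.3 CPM at 3 h (3.38 ± 0.42; adjusted p = 0.000585). PEP4, vacuolar proteinase A, was at 176, 149 and 200 CPM and then at 629, 602 and 988 CPM (2.08 ± 0.33; adjusted p = 0.00239). APE1, an aminopeptidase delivered to the vacuole by selective transport, rose by 2.72 ± 0.43 and its receptor ATG19 by 2.21 ± 0.52. ATG34, another receptor of selective autophagy, rose by 2.67 ± 0.40. PRB1, vacuolar proteinase B, rose by 2.56 ± 0.49 and LAP3, a cysteine aminopeptidase, by 1.19 ± 0.26. The groups did not overlap for these 7 genes. The same was true of 33% of all features tested and of 150 of the 152 that rose. The summed level of the 19 genes was 1998, 1835 and 2269 CPM at 0 h, 5461, 6972 and 6122 CPM at 3 h and 21747 ± 2931 CPM at 6 h. The count of 9 was 5 without replicate 2 of the 0 h group or replicate 1 or 2 of the 3 h group and 4 without replicate 3 of the 0 h group, and ATG32, ATG34, PEP4 and APE1 were called each time.

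Enzymes that make NAD from tryptophan included 3 of 7 that rose (median 1.32, list made after the fits were seen). BNA2, the heme-containing dioxygenase that opens the pathway, was at 22.1, 18.6 and 7.11 CPM at 0 h and 162, 155 and 45.6 CPM at 3 h (2.98 ± 0.50; adjusted p = 0.00315), and the 3 h libraries lay above those at 0 h. BNA5 and BNA6 rose by 1.33 ± 0.31 and 1.55 ± 0.36. The count was 1, BNA2, without any single library other than replicate 3 of the 3 h group, where it was 4. With DESeq2 it was 5. Outside these lists the largest rises were DUR3 and VRL1. DUR3, a plasma membrane carrier of urea and polyamines, was at 1.94, 0.847 and 1.56 CPM at 0 h and 23.6, 48.3 and 74.1 CPM at 3 h (4.96 ± 0.84; adjusted p = 0.00335). VRL1 was at 1.16, 0.847 and 1.13 CPM and then at 15.2, 30.0 and 17.1 CPM (4.23 ± 0.67; adjusted p = 0.00239). The 0 h values of both lay near the floor, which leaves the size of the fold poorly fixed. HBN1 and FRM2, neighbouring genes on chromosome III for nitroreductase-like proteins, rose by 3.12 ± 0.46 and 3.03 ± 0.43, ECM4, a glutathione transferase, by 3.16 ± 0.52 and VTC5, of the vacuolar polyphosphate polymerase, by 2.13 ± 0.22; these 4 were picked after their values were seen because they were called in each alternative.

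In a list of pheromone response genes made after the fits were seen, 6 of 14 fell, none rose and 8 did not pass the test, with a median of −0.78. After thinning the count was 3. AGA1 and AGA2, the anchor and the adhesion subunit of a-agglutinin, fell from 41.5, 32.2 and 70.6 CPM to 3.41, 2.6 and 8.49 CPM and from 26, 24.6 and 34.5 CPM to 5.58, 2.18 and 4.25 CPM. Their log2 fold changes were −3.30 ± 0.62 (adjusted p = 0.0074) and −2.89 ± 0.41 (adjusted p = 0.00129). Neither gene's groups overlapped, which the rule for naming the largest changes required. SST2, which damps pheromone signalling, fell by 2.19 ± 0.45 and FUS1, of cell fusion, by 2.19 ± 0.55. The a-factor genes MFA1 and MFA2 fell by 1.40 ± 0.29 and 1.39 ± 0.32. The count was 3 without replicate 1 of the 0 h group or of the 3 h group, 4 without replicate 2 of the 0 h group, 2 without replicate 2 of the 3 h group and 1, AGA2, without replicate 3 of the 0 h group. The largest fall was that of YER053C-A, a small uncharacterised gene, from 25.2, 24.6 and 61.9 CPM to 2.17, 0.416 and 4.35 CPM (−4.02 ± 0.80; adjusted p = 0.00993; 0.0666 without replicate 3 of the 0 h group). YLR108C, also uncharacterised, was at 6.59, 16.1 and 7.81 CPM and then at 0.62, 1.04 and 1.62 CPM. COA2, a cytochrome oxidase assembly factor, and MPP6, a cofactor of the nuclear exosome, fell by 2.27 ± 0.57 and 1.96 ± 0.36, the first not called without any single library other than replicate 3 of the 3 h group (adjusted p from 0.0692 to 0.16). SCM4, a protein of the mitochondrial outer membrane, fell by 1.87 ± 0.30.

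Of 79 genes listed by name as large subunit proteins 6 fell and none rose, with a median of −0.38. The list includes RPP1, which is not a ribosomal protein (−0.70, not called). Of 56 small subunit proteins none passed the test, with a median of −0.36. RPL33A was at 76.0, 193 and 114 CPM at 0 h and 13.6, 7.70 and 28.8 CPM at 3 h (−2.91 ± 0.53; adjusted p = 0.00635). RPL28 fell from 249, 318 and 231 CPM to 50.8, 41.0 and 76.3 CPM (−2.24 ± 0.45; adjusted p = 0.0103). RPL36B, RPL35B, RPL18B and RPL35A gave −2.34 ± 0.47, −1.46 ± 0.31, −1.12 ± 0.27 and −1.01 ± 0.24. Coding sequence split by an intron, looked up after these values were seen, was common to all 6. They were the only such genes among the 43 that fell (14%), against 4.78% of the genes tested. That share restates these 6 calls, in a list where 50 of 79 genes have a split coding sequence. Among the 79 listed genes the median was −0.45 for the 50 with a split coding sequence. It was −0.33 for the 29 with 1 coding exon, of which none was called. All but RPL28 have a near-identical paralog, so their values depend on how shared reads were counted, which the sources used here do not give. The count of 6 was 4 without replicate 1 or 2 of the 0 h group, 3 without replicate 1 of the 3 h group and 2 without replicate 3 of the 0 h group or replicate 2 of the 3 h group. It was 9 with DESeq2 and 12 with only the compared groups in the fit. Ribosome biogenesis factors showed 2 falls among 53, RRP17 and NOP15, but all 53 lay below 0 with a median of −0.70. Both calls were lost without any single library other than replicate 3 of the 3 h group (adjusted p from 0.0578 to 0.185). The number of falls was 7 with DESeq2 and 18 with only the compared groups in the fit.

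RNA of the same strain moved in the same direction for most of these genes. In RNA-seq 128 features rose (2.13%) and 61 fell (1.02%) out of 6006, 3.15% together, and 19.1% had an unadjusted p under 0.05. Of the 152 features that rose in footprints, 148 lay above 0 in RNA and 76 of them rose, with a median RNA change of 1.44 beside 1.89 in footprints. Of the 44 that fell, 40 lay below 0 in RNA and 7 of them fell, with a median of −0.69 beside −1.81. The genes called the same way in both numbered 83, which is 42.3% of the footprint calls and 43.9% of the RNA calls. The RNA libraries were shallower, 186283 to 4443048 reads, and the part of depth in these counts was not tested. FIT1, FIT2 and FIT3 rose in RNA by 4.69, 4.91 and 4.14. ATG32 gave 1.27 in RNA (adjusted p = 0.152) beside 3.38 in footprints, RPL33A −0.80 (adjusted p = 0.182) beside −2.91, and RPL36B 0.11 (adjusted p = 0.915) beside −2.34.

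The difference between the footprint and RNA changes, the change in translational efficiency, passed edgeR's test for none of 5290 features. At an unadjusted p under 0.05 there were 328 (6.2%), and DESeq2 called none with 342 unadjusted. With the shared lysate as a block none was called and 709 had an unadjusted p under 0.05. That number was 690 without replicate 1 and 158 without replicate 3 of the 0 h RNA group, and 143 after thinning, with none called each time. The 5 features with the smallest p, all at an adjusted p of 0.439, were RTC4, RPL36B, SPO21, ECM32 and DCP1. RPL36B had an efficiency change of −2.45 and ECM32, a helicase, of −2.02. ECM32 footprints fell from 62.8, 61.8 and 60.5 CPM to 26.4, 17.6 and 20.7 CPM (−1.53 ± 0.30; adjusted p = 0.0103; 0.0677 without replicate 2 of the 3 h group), while its RNA gave 0.49 (adjusted p = 0.533). Efficiency changes of RPL33A, RPL28 and RPL35B were −2.11, −1.75 and −1.40 with adjusted p of 0.632, 0.729 and 0.674.

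**Figure D4:**
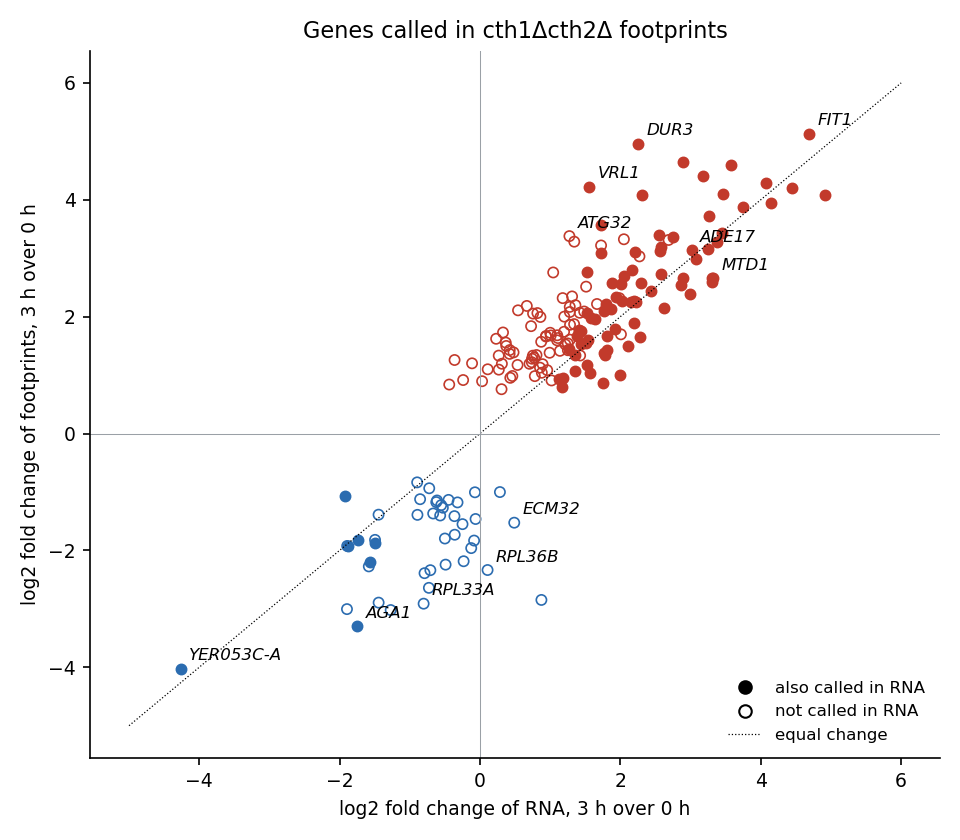
Log2 fold change of footprints against that of RNA, 3 h over 0 h, for the genes called in cth1Δcth2Δ footprints; red points rose and blue points fell, filled points also passed the test in RNA, and the dotted line marks equal change. Of the 152 genes that rose 148 lie right of 0, and RPL36B and ECM32 lie below the line with RNA changes of 0.11 and 0.49.

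In wild-type footprints 195 features rose (3.67%) and 96 fell (1.81%), 5.48% together, and 18.3% had an unadjusted p under 0.05. Of the 152 features that rose in the mutant, 150 lay above 0 in the wild type and 104 rose there. Of the 44 that fell in the mutant, 42 lay below 0 in the wild type and 17 fell. Wild-type and mutant changes share no library, and the strain difference was called for 15 features (0.282%), 14 of them more positive in the mutant. The remaining call (0.0188%), more negative in the mutant, was TIS11, whose gene is deleted there. None of the 14 was called in the mutant itself, where changes ran from −0.10 (NFU1) to 1.12 (SDH4), while all 14 fell in the wild type. With only the compared groups in the fit, ACO1 (adjusted p = 0.0383), SDH4 (0.0342) and APE4 (0.0494) were called higher in the mutant, and APE4 also with DESeq2 (0.0243).

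ACO1, the iron-sulfur enzyme aconitase, was at 1186, 835 and 1050 CPM at 0 h and 2340, 1564 and 2612 CPM at 3 h in the mutant, and at 876, 942 and 769 CPM and then 218, 67.1 and 211 CPM in the wild type. The strains thus overlapped at 0 h and lay far apart at 3 h, and the difference in response was 3.46 ± 0.52 on the log2 scale (SE; adjusted p = 0.0056). GLT1, glutamate synthase, was at 1400, 1282 and 1523 CPM and then 1446, 1715 and 1345 CPM in the mutant, and at 1106, 1041 and 932 CPM and then 190, 51.6 and 101 CPM in the wild type (3.26 ± 0.55; adjusted p = 0.0126). LEU1, an iron-sulfur enzyme of leucine synthesis, was at 428, 380 and 346 CPM and then 394, 776 and 451 CPM in the mutant, and at 288, 256 and 247 CPM and then 59.8, 33.0 and 41.6 CPM in the wild type (3.04 ± 0.40; adjusted p = 0.00208). SDH1, SDH2 and SDH4 are subunits of succinate dehydrogenase, ILV3 is an iron-sulfur dehydratase, ISA1 and NFU1 serve cluster assembly, LIP5 makes lipoic acid, HEM1 opens heme synthesis and CBP3 helps build the cytochrome bc1 complex; FMP10 is a mitochondrial protein. The number called was 5 without replicate 2 of the mutant's 0 h group or replicate 3 of the wild type's 3 h group, and 6 to 13 without each other library. APE4, an aminopeptidase, lost its call without each of the 12 libraries in turn, CBP3, HEM1 and SDH4 without 11 of them, NFU1 without 10 and LIP5 without 9 (adjusted p from 0.0519 to 0.194). ISA1 lost its call without 6 libraries (0.0841 to 0.111) and after thinning (0.349). GLT1 (0.0625 to 0.0746) and ILV3 (0.0574 to 0.0625) lost theirs without replicate 1 or 2 of the mutant's 0 h group or replicate 3 of the wild type's 3 h group, and FMP10 without the latter 2 of these 3 (0.0528 to 0.058). Thinning also ended the calls for FMP10 (0.127), LIP5 (0.902) and NFU1 (0.303).

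TTATTTAT, the AU-rich element bound by this protein family, lay within 300 bases after the stop codon, on the coding strand, of 12 of those 14 genes (85.7%), against 6.88% of 5989 genes, 7.89% of the genes that rose in the mutant and 6.98% of those that fell. In the mutant 12 of the 384 tested genes with the element rose (3.12%) and 3 fell (0.781%), with a median of 0.06. These shares lay near those of the 4891 genes without it, of which 2.86% rose and 0.818% fell. The 3 that fell with the element included TIS11, a gene deleted in the mutant. In the wild type 17 with the element rose (4.43%) and 42 fell (10.9%), with a median of −0.21. Of the 4891 genes without it 3.64% rose and 1.06% fell there. Sites of 8 of the 12 genes are shown; each is 30 bases of R64 on the coding strand with the element in capitals, which runs on where copies overlap.
ACO1, chrXII:735162-735191, minus strand: tttaaaggttaTTATTTATtttgtcttctg
GLT1, chrIV:149171-149200, minus strand: agcttgagttaTTATTTATtttatgatcgt
LEU1, chrVII:476210-476239, minus strand: aaccaaactacTTATTTATtattaatacgt
SDH1, chrXI:169025-169054, minus strand: tatttatttagTTATTTATtaacttactat
SDH2, chrXII:52951-52980, minus strand: ctctatgactaTTATTTATTTATcattggc
SDH4, chrIV:818609-818638, plus strand: tttactagtatTTATTTATtaTTATTTATt
HEM1, chrIV:929190-929219, plus strand: tttttttattcTTATTTATgtatgatactt
LIP5, chrXV:715505-715534, minus strand: tgcttgctggaTTATTTATTTATatcttgt
Within the 300 bases GLT1 held 13 copies of the element, SDH1 7 and ACO1 5, overlapping copies included.

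**Figure D5:**
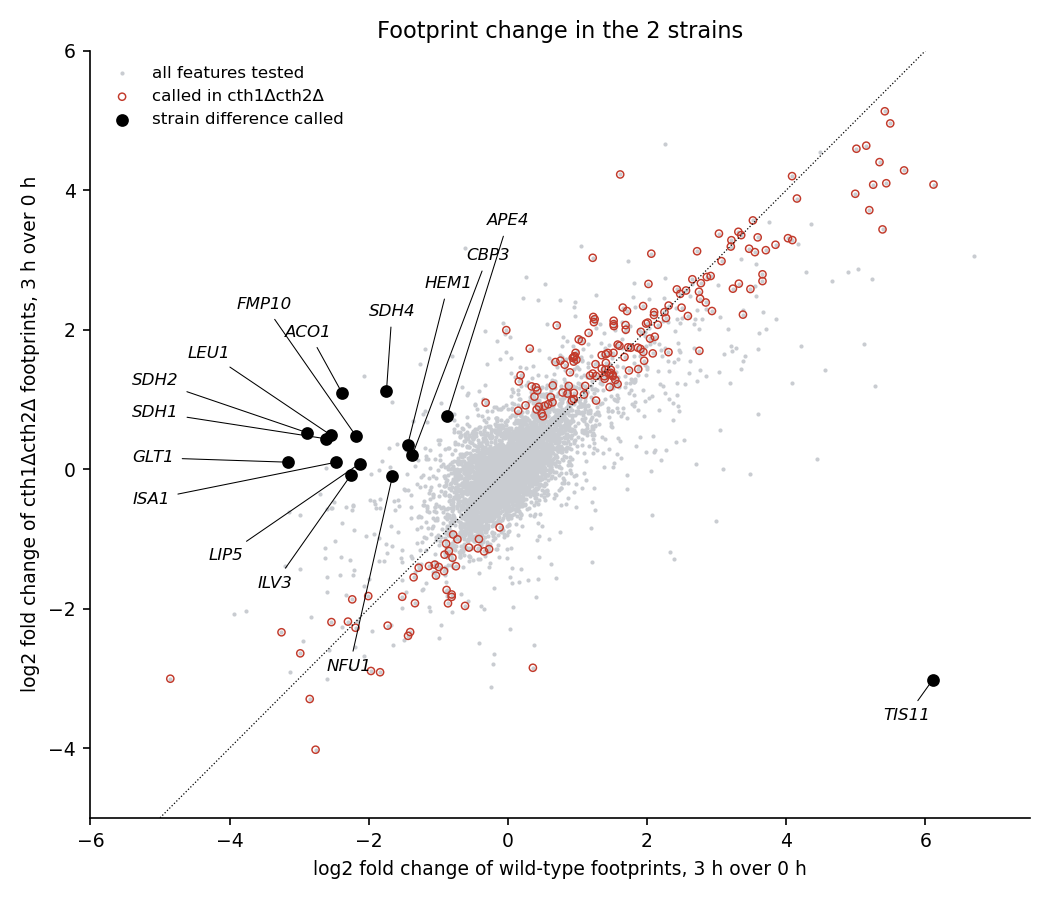
Log2 fold change of footprints, 3 h over 0 h, in the cth1Δcth2Δ mutant against the wild type for all 5315 features tested (grey); red circles were called in the mutant, black points have a called strain difference, and the dotted line marks equal change. The 14 labelled genes other than TIS11 lie between −0.10 and 1.12 in the mutant and between −3.16 and −0.87 in the wild type.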

How the data were processed

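The authors deposited whole-read counts per annotated feature for each library, and no normalised values. Per the submitters' processing notes cutadapt 3.4, Bowtie 1.1.2 and STAR 2.7.9a were used with the R64 genome build; the counting program, its strand setting and the treatment of reads that match several genes are not given in the sources used here. Per the labels' protocols, footprints and RNA came from the same lysates, with cycloheximide in the lysis buffer. Counts were tested with edgeR 4.0.16 (R 4.3.3, limma 3.58.1), using its quasi-likelihood F test, TMM scaling, a low-count filter with a minimum count of 10 and Benjamini-Hochberg adjustment over all features tested. All 18 footprint libraries entered 1 fit, likewise all 18 RNA libraries, and translational efficiency was the interaction of assay and time. CPM values are TMM-scaled, and SE is that of the log2 fold change. The edgeR test of mutant footprints was also run on simulated footprint counts with known changes, and the other comparisons were not. DESeq2 1.42.0, other scalings, no filter, thinning, the compared groups alone, a replicate block and leaving out each library were the alternatives.

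Same-numbered mutant footprint libraries at 0 h and 3 h deviated together (r = 0.295, 0.230 and 0.500 across features, all over 0.1), so the numbers were read as pairs. The main fit had no block and left this pairing out, as did the fits without 1 library. The pairing entered only in the alternative with the replicate block. Replicates are separate cultures per the labels. Named genes were the 12 largest rises and 12 largest falls with libraries that do not overlap and a mean of at least 10 CPM, up to 4 members of each list with the smallest p, the deleted and mating-type genes, up to 15 strain-difference genes and 5 genes each for efficiency and RNA. The members and lists were chosen with earlier results of these data known. The lists for purine synthesis, one-carbon enzymes, vacuolar hydrolases, pheromone response and NAD synthesis, the letters TGACTC, the Zap1 element, the intron comparison and other genes described outside that rule were chosen after the values were seen.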

Additional observations from a re-analysis of the deposited data

Results flagged for a closer look

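The footprint response to 3 h of BPS differed between the mutant and the wild type for 15 genes, by edgeR's test of the difference itself at an adjusted p under 0.05. The mutant's log2 fold change exceeded that of the wild type by the following amounts on the log2 scale: LEU1 3.04, SDH1 3.04, ACO1 3.46, SDH2 3.41, FMP10 2.66, ILV3 2.17 and GLT1 3.26. For the remaining genes with a higher response in the mutant the differences were ISA1 2.57, NFU1 1.56, HEM1 1.79, LIP5 2.21, SDH4 2.87, CBP3 1.57 and APE4 1.64. TIS11, deleted in the mutant, had a difference of −9.13.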

How the results depend on the processing

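The mutant footprint count of 196 became 428 with DESeq2, 392 with the compared groups alone and 332 with the replicate block, and ranged from 47 to 198 when 1 library was left out. The share of calls that were higher was 77.6% and became 59.9% with the compared groups alone (235 higher and 157 lower). The RNA count of 189 became 325 with DESeq2 and 307 with the replicate block (r of same-numbered RNA libraries 0.064, 0.055 and 0.146, so not read as pairs), and ranged from 79 to 274 without 1 library. Scaling RNA by total counts gave 304 (284 higher and 20 lower, 93.4% higher against 67.7%) and moved the median of all features from −0.03 to 0.26. The strain-difference count of 15 became 29 with DESeq2, 8 after thinning and 18 with the replicate block (lowest r of same-numbered libraries 0.060), and ranged from 5 to 13 without 1 library. No efficiency call was made under any of 20 alternatives. Among genes not called in the mutant, the log2 fold change turned sign for GLT1 (from −0.015 to 0.175 without 1 library), ILV3 (−0.231 to 0.066), ISA1 (−0.103 to 0.249, and −0.178 after thinning), LIP5 (−0.051 to 0.267) and NFU1 (−0.203 to 0.014). The cause of these shifts was not tested. Depth limits genes of few reads most, since 3 reads were worth up to 2.51 CPM.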

Other observations

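Among carbon and energy genes, the log2 fold changes of mutant footprints at 3 h were as follows for each list: stress and reserve carbohydrate genes (25 tested, none called, median 1.27), glycolysis (16 tested, 1 rose, median 0.51), hexose transport (9 tested, none called, median 0.05), ATP synthase (15 tested, 1 rose, median −0.03), retrograde response and alternative dehydrogenase genes (9 tested, none called, median 0.30), HAP regulators (5 tested, none called, median 0.08) and hypoxic genes (10 tested, 1 fell, median 1.1). ENO1, a glycolytic enolase, was the glycolytic gene that rose, from 1482, 1360 and 1089 CPM to 6404, 9836 and 2018 CPM. Its call was lost without any single library other than replicate 3 of the 3 h group. Of the 25 stress and reserve carbohydrate genes 23 lay above 0, and 6 of the 25 rose in the wild type. In the mutant 2 of them were called higher with the replicate block, 5 with only the compared groups in the fit, and 4 higher and 1 lower with DESeq2. In glycolysis 2 were called higher with the replicate block and 3 with DESeq2, and the ATP synthase call was lost after thinning, while DESeq2 and the compared groups alone each added 1 lower call there.

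Among iron, metal and nutrient genes the lists gave heme catalases and peroxidases (3 tested, none called, median 0.01), iron enzymes of translation and DNA (11 tested, none called, median −0.52), ribonucleotide reductase (8 tested, 1 rose, median 0.22), ergosterol and lipid iron enzymes (14 tested, none called, median −0.13), biotin genes (5 tested, 1 rose, median 1.80), copper genes (6 tested, 1 rose, median 0.33), sulfate and methionine genes (12 tested, none called, median 0.72) and phosphate genes (3 tested, none called, median 0.83). With the replicate block 2 sulfate and methionine genes and 1 phosphate gene were called higher, and 1 ergosterol and lipid iron enzyme was called higher and 1 lower. The biotin call was lost with RLE factors, total-count scaling or thinning, and the ribonucleotide reductase call after thinning. Those of amino acid metabolism gave amino acid synthesis under Gcn4 (27 tested, 2 rose, median −0.07) and other branched-chain and glutamate steps (13 tested, 2 rose, median 0.15). The 2 that rose in the Gcn4 list, SER1 and SER3, were also counted in the list of one-carbon enzymes. Of 67 tested genes named as mitochondrial ribosomal proteins only MRP8 rose, and the median was 0.08. MRP8 is not an established ribosomal protein. The lists of protein and RNA metabolism gave translation elongation (8 tested, none called, median −0.30), mRNA decay (11 tested, none called, median −0.06), core histones (9 tested, none called, median −0.36) and proteasome (34 tested, none called, median 0.30). The cell type lists gave a-cell markers (6 tested, 3 fell, median −1.13) and α-cell markers (1 tested, none called, median 1.07). The 3 a-cell markers that fell, AGA2, MFA1 and MFA2, were also counted in the pheromone response list. DESeq2 called 3 proteasome genes higher, thinning left 1 a-cell marker and 1 branched-chain or glutamate gene called, and with only the compared groups in the fit 1 core histone and 1 iron enzyme of translation and DNA were called lower. The Gcn4 list had 1 call with RLE factors, total-count scaling or thinning.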
